A study of Mus musculus with 12 samples.

Results

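Potassium channels are described here through the 76 genes whose symbol begins with Kcn and whose deposited count averaged at least 10 over the 12 libraries. They are 76 of 93 Kcn rows among 19336 named loci, and all 76 were among the 15656 genes tested. The Kcn symbols cover the pore-forming subunits and the auxiliary subunits that dock onto them. Members just inside the minimum were Kcnn4 and Kcnrg, with mean counts of 12.0 and 12.4, and the rows just outside it were Kcnk6 and Kcnj13, with 8.65 and 6.38.

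Potassium channels set the resting potential of a neuron, repolarise it after each action potential and limit how often it fires. Voltage-gated subunits open on depolarisation, inward rectifiers and tandem-pore channels carry current near rest, and calcium-activated channels open after calcium entry. In the hippocampus some subunits belong mainly to neurons, whereas glial cells use others to clear potassium from the extracellular space. The genes were grouped by these roles.

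RNA was sequenced from cultures of postnatal day 4 hippocampus of wild-type mice, grown for 8 days before the treatments. DAPT blocks γ-secretase, a protease that cleaves Nrg1, Notch and other proteins within the membrane. The extracellular part of ErbB4, a receptor that binds Nrg1, was added in soluble form (sErbB4) to start back signaling through Nrg1. The study compared these agents to separate signaling that needs the cut from signaling that does not.

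Each of 4 conditions had 3 libraries. They were DAPT + sErbB4 (20 µM DAPT, then 20 nM sErbB4 for 4 h), DAPT (20 µM DAPT, then the sErbB4 vehicle), sErbB4 (DAPT vehicle, then 20 nM sErbB4 for 4 h) and vehicle (both vehicles). The labels place DAPT overnight before the sErbB4 step, and the sources differ on its length. Cells of several animals were pooled in a plating, and the labels do not say which libraries came from which plating, so p-values measure the spread between these libraries. The cultures were not sorted, and in bulk RNA fewer cells of a type and less RNA per cell cannot be told apart.

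In units of 1000000 estimated counts, library totals were 36.5 to 54.4, of which 18.7 to 30.8 fell on named loci, and members held 0.152 to 0.201% of the named counts. Rn45s, a ribosomal RNA precursor, took 31.4 to 44.6% of the named counts over the 12 libraries, and without it the members held 0.270 to 0.319%. The library sErbB4 replicate 1 stood apart on the second principal component (-23.8, against -10.4 to 10.1 for the other 11). Hes1, a Notch target, was at 1.51 and 1.91 CPM with DAPT + sErbB4 and with DAPT, against 6.42 and 6.47 CPM with sErbB4 and with vehicle (log2 fold change -1.92), and Hes5 and Hey1 had -1.90 and -0.31. No marker in any of the 11 cell type lists was at 0 in all libraries. The summed level of 8 neuron markers was 1468 to 1693 CPM in the 6 DAPT libraries, against 1250 to 1459 CPM in the 6 libraries without DAPT, with 4 of 8 called higher. The 5 oligodendrocyte precursor markers summed to 404 to 453 CPM with DAPT, against 876 to 974 CPM without, with 4 of 5 called lower. Radial glia markers summed to 1957 to 2265 CPM with DAPT, against 3771 to 4435 CPM without, with 3 of 6 called lower, and all 4 markers of dividing cells were called lower. The 8 astrocyte markers summed to 6110 to 6867 CPM with DAPT, against 5668 to 6687 CPM without, with 1 called higher and 3 called lower. Of the other lists, 2 of 5 excitatory neuron markers were called higher, 1 of 5 mature oligodendrocyte markers lower, and 1 higher and 3 lower of 6 markers of pericytes, smooth muscle and fibroblasts. No endothelial marker was called.

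Levels are in CPM, counts per 1000000 named counts after TMM scaling. Across genes the deposited values did not rise with the length of the longest annotated transcript, so levels are compared between genes. That check does not cover single genes or the isoforms expressed, so ranks and shares between genes are approximate. Kcnj10, the main inward rectifier of astrocytes, was the most abundant member at 830 CPM over the 12 libraries and held 47.1% of the summed member level. Kcnk1 followed at 133 CPM, Kcnip3 at 49.4 CPM, Kcnd3 at 46.4 CPM and Kcnab2 at 42.0 CPM. The median member was at 5.91 CPM, 65 members were above 1 CPM and 27 were above 10 CPM. With Rn45s left out of the totals the levels were 1.68 times as high (median over members), with 70 above 1 CPM and 37 above 10 CPM. The lowest 3 members, Kcnu1, Kcnrg and Kcnn4, were at 0.552, 0.501 and 0.466 CPM.

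The promoters of 4 members are printed, those of the 2 genes with the largest falls and those of a pair of neighbours that moved in opposite directions. RefSeq (GRCm38.p6, the mm10 build) gave promoter windows for 56 of 76 members, each with 250 bases before and 50 bases after a start. Capitals mark TGGGAA on either strand, the core bound by RBPJ, the DNA-binding partner of the Notch intracellular domain. The windows are chr8:119635631-119635930 (minus strand) for Kcng4, chr2:127522045-127522344 (minus strand) for Kcnip3, chr1:172340960-172341259 (plus strand) for Kcnj10 and chr1:172329273-172329572 (minus strand) for Kcnj9.
Kcng4: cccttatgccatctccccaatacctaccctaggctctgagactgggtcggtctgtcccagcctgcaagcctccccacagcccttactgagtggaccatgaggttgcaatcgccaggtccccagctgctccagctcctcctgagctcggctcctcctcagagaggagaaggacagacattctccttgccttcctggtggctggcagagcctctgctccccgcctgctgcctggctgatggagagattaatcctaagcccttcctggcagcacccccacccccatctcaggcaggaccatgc
Kcnip3: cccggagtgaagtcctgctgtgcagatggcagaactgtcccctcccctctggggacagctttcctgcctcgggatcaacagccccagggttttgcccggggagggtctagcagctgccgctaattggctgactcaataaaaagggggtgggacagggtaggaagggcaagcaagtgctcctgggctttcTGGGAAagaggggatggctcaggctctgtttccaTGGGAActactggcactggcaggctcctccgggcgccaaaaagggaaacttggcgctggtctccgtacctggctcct
Kcnj10: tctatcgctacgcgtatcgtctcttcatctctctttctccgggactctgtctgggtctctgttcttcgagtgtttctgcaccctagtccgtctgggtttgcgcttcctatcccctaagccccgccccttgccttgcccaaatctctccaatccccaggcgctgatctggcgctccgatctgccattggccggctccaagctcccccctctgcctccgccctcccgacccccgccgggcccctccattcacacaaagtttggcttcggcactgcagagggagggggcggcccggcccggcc
Kcnj9: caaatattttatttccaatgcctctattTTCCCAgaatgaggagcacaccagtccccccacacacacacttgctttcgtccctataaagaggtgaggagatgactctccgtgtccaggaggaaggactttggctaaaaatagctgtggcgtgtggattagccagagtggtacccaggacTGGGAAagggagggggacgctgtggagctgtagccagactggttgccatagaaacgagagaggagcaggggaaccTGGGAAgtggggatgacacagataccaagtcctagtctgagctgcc
TGGGAA occurred in 25.6% of all 32851 windows and in 25.3% of the 79 member windows. It was in 4 of 9 windows of members lower with DAPT (44.4%), which were windows of Kcnip3 and Kcnj16 only, and in 4 of 24 windows of members higher with DAPT (16.7%). The windows of Kcng4 and Kcnj10 held none, and that of Kcnj9 held 3. Kcnip3 has windows for 3 starts, of which the one printed held the most matches, 2, and the others held 1 and 0. CACGNG, a bHLH motif of the Hes and Hey type, was in 27.5% of all windows and in 25.3% of member windows. A match says only that these letters are present.

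DAPT shifted a larger share of the members than of all genes, and most of the members that moved were higher. In DAPT over vehicle 18 of 76 members were called (13 higher, 5 lower), where 11.6% of all tested genes were called (4.66% higher, 6.92% lower). In DAPT + sErbB4 over sErbB4, which shares no library with the first, 20 were called (14 higher, 6 lower), where 11.7% of all genes were (4.55% higher, 7.15% lower). A gene was called at a Benjamini-Hochberg adjusted p under 0.05 over all genes (edgeR quasi-likelihood test) and a log2 fold change beyond 0.32 in either direction, the fold limit of the study. With both comparisons averaged, called the mean DAPT effect from here on, 24 members were called, 31.6% of members against 13.2% of all genes. Of these 19 were higher, where 5.54% of all genes were, and 5 were lower, where 7.7% were. The median log2 fold change of the mean DAPT effect was 0.20 over members and 0.01 over all genes.

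**Figure D1:**
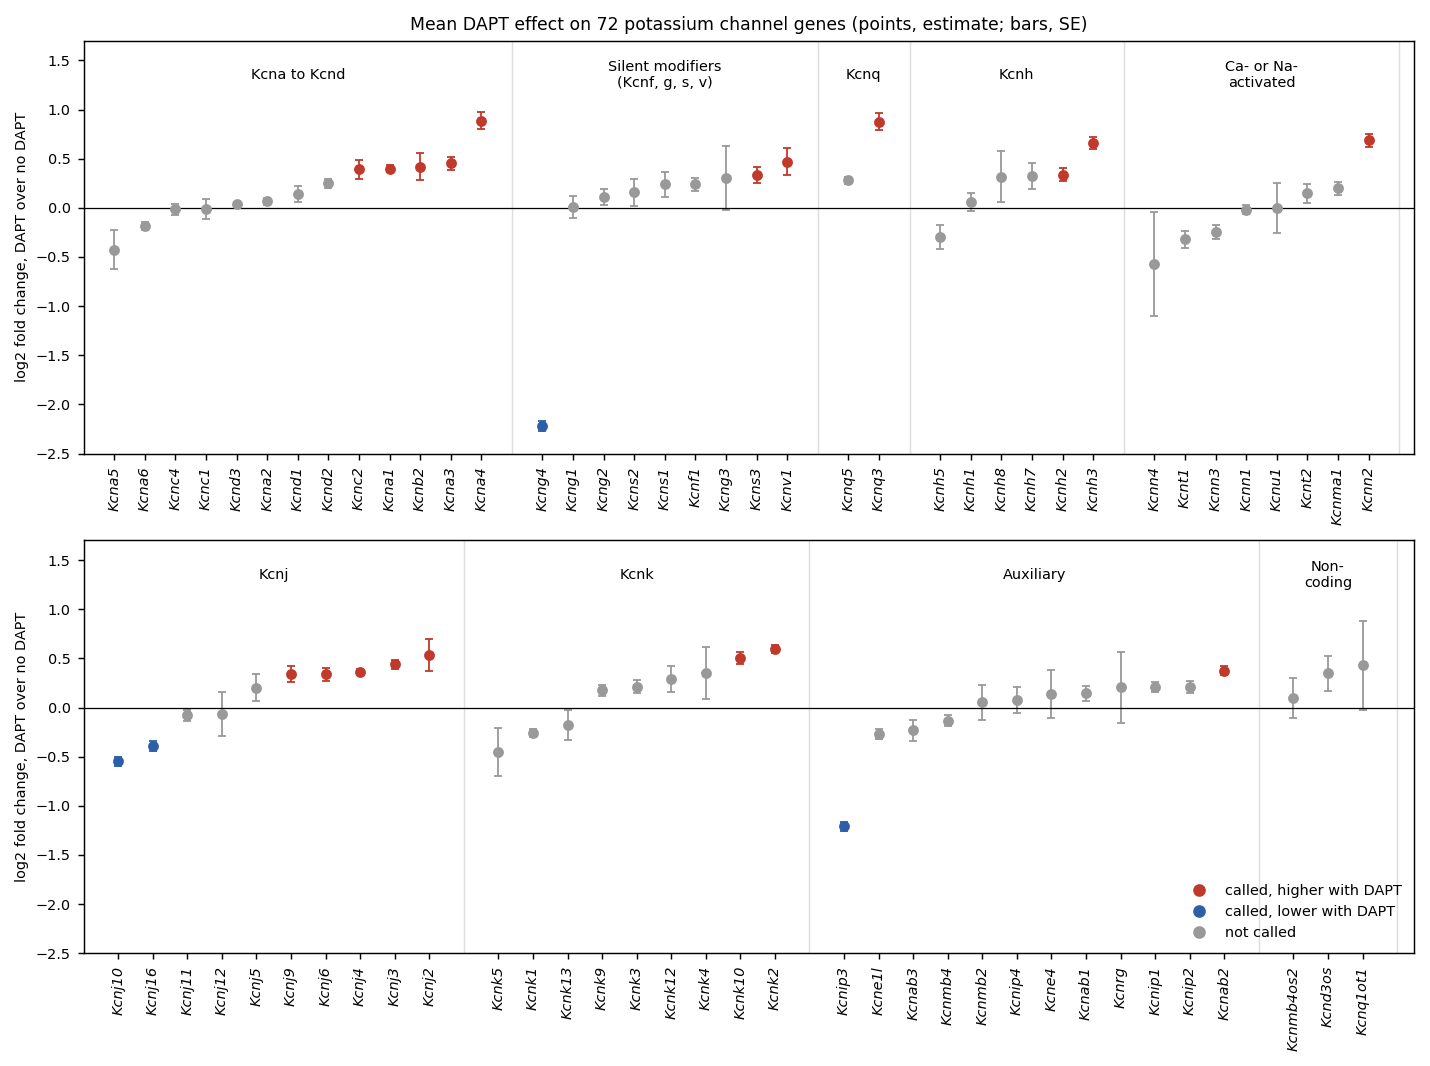
Log2 fold change of the mean DAPT effect (y axis) for 72 of the 76 members (x axis), grouped by role and ordered by size within a role, with points for the estimate and bars for the SE from the fit to 12 libraries. Red marks the 19 members called higher and blue 4 called lower. Kcng4 sits lowest, at -2.22, and Kcna4 highest, at 0.89.

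Of the 15 members called in both comparisons all had the same direction in both (10 higher, 5 lower). Across all 76 members 65 had the same sign, and the log2 fold changes had Pearson r = 0.862 and Spearman rho = 0.737 over the 76 genes, or r = 0.795 without Kcng4. Genes within a library are not independent. The same counts over all genes are not given here, so this agreement cannot be read as particular to the members. Only in DAPT over vehicle were 3 further members called (Kcnh2, Kcnj6 and Kcnj9). Only in DAPT + sErbB4 over sErbB4 were 5 further ones called, among them Kcnc2, Kcnj4, Kcns3 and Kcnt1. A further 3 were called only in the mean DAPT effect (Kcnb2, Kcnj2 and Kcnv1). In the test of whether the DAPT effect differed with sErbB4 (interaction), 0 members were called by edgeR, DESeq2 or limma, where 0.00639% of all genes were, and 2 members (2.63%) had an unadjusted p under 0.05, where 3.61% of all genes did. In the 24 called members the interaction was at most 0.19 on the log2 scale.

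**Figure D2:**
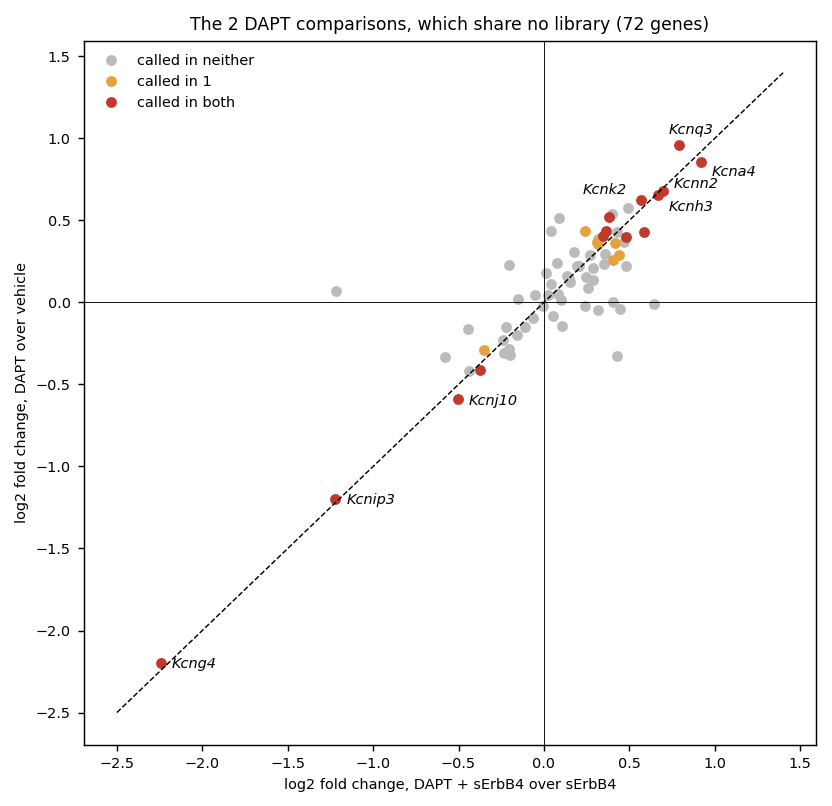
Log2 fold change of DAPT + sErbB4 over sErbB4 (x axis) against that of DAPT over vehicle (y axis) for 72 of the 76 members, with the line of equal change dashed. The 14 members shown that were called in both comparisons lie along the line, from Kcng4 at the lower left to Kcna4 and Kcnq3 at the upper right.

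The silent modifiers do not form channels alone and change the properties of Kv2 channels they join. Kcng4, which encodes Kv6.4, had the largest change of any member. Kcng4 had 3.96, 4.09 and 4.05 CPM with DAPT + sErbB4 and 4.29, 4.47 and 4.18 CPM with DAPT, against 18.4, 20.5 and 18.3 CPM with sErbB4 and 21.1, 19.6 and 18.4 CPM with vehicle. It was 4.66-fold lower with DAPT, with a log2 fold change of -2.22 ± 0.05 (SE, adjusted p = 9.56e-11). The 6 DAPT libraries lay within 3.96 to 4.47 CPM, far below the lowest library without DAPT. Kcng4 made up 30.8 to 36.7% of the Kcng sum with DAPT, against 67.1 to 74.8% without. The other Kcng genes were not called.

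Of the other modifiers, Kcnv1 (Kv8.1) and Kcns3 (Kv9.3) were called higher in the mean DAPT effect. Kcnv1 was called in neither single DAPT comparison, and Kcns3 in DAPT + sErbB4 over sErbB4 only. Kcnv1 had 1.74, 1.59 and 1.60 CPM with DAPT + sErbB4 and 1.56, 1.56 and 1.54 CPM with DAPT, against 1.05, 1.21 and 1.47 CPM with sErbB4 and 1.02, 0.899 and 1.27 CPM with vehicle. The libraries did not overlap, with a log2 fold change of 0.47 ± 0.14 (SE, adjusted p = 0.0192). Kcns3 had 3.48, 3.58 and 4.16 CPM with DAPT + sErbB4 and 3.20, 2.99 and 3.46 CPM with DAPT, against 2.98, 2.59 and 2.94 CPM with sErbB4 and 2.62, 2.53 and 2.91 CPM with vehicle. They did not overlap here either, with a log2 fold change of 0.33 ± 0.08 (SE, adjusted p = 0.00685), and the call was lost without vehicle replicate 2, sErbB4 replicate 2, DAPT replicate 3 or DAPT + sErbB4 replicate 3. Kcnf1, the only member of its subfamily, stayed under the fold limit at 0.24 ± 0.07.

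Kcnip3 showed the next largest fall. It encodes KChIP3, a calcium-binding subunit of Kv4 channels that is also known as the repressor DREAM and as the presenilin-binding protein calsenilin. Kcnip3 had 28.3, 30.5 and 30.9 CPM with DAPT + sErbB4 and 29.9, 29.3 and 30.0 CPM with DAPT, against 64.7, 67.3 and 77.4 CPM with sErbB4 and 69.8, 65.8 and 68.8 CPM with vehicle. The 6 DAPT libraries were all below every library without DAPT, with a log2 fold change of -1.21 ± 0.05 (SE, adjusted p = 4.83e-09). Kcnip1 and Kcnip2 had log2 fold changes of 0.21 each and were not called, and Kcnip4 had 0.08. Kcnip3 was 34.4 to 40.3% of the Kcnip sum with DAPT, against 59.9 to 65.1% without. Its Kv4 partners Kcnd2 and Kcnd3 had 0.25 ± 0.05 and 0.04 ± 0.02 and were not called.

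Kcnq genes encode the Kv7 channels of the M-current, a slow potassium current that restrains repeated firing, and Kcnq3 (Kv7.3) is one of the neuronal subunits. Kcnq3 had 12.0, 12.7 and 12.2 CPM with DAPT + sErbB4 and 12.0, 11.5 and 11.7 CPM with DAPT, against 6.80, 5.75 and 8.92 CPM with sErbB4 and 5.71, 5.79 and 6.55 CPM with vehicle. All 6 DAPT libraries were above all 6 without, 1.84-fold, with a log2 fold change of 0.88 ± 0.09 (SE, adjusted p = 1.20e-05). Kcnq5 had 0.28 ± 0.04 in the mean DAPT effect, under the fold limit, and its libraries did not overlap.

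**Figure D3:**
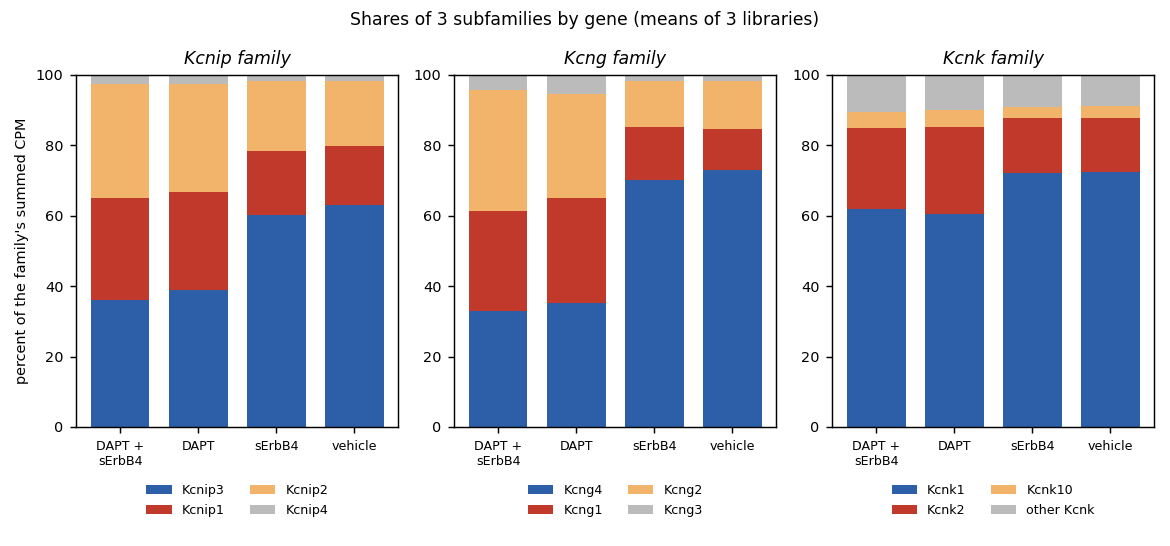
Share of each gene in the summed CPM of its subfamily (y axis, percent, means of 3 libraries) in the 4 conditions, for Kcnip, Kcng and Kcnk. The blue share of Kcnip3, Kcng4 and Kcnk1 is smaller in both DAPT conditions than in both conditions without DAPT.

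Of 15 voltage-gated alpha subunits (Kcna to Kcnd), 5 were called higher and none lower, where 5.54% and 7.7% of all genes were. Kcna4 (Kv1.4), a rapidly inactivating subunit of axons, had the largest rise of all members. Kcna4 had 9.78, 8.94 and 8.54 CPM with DAPT + sErbB4 and 7.92, 7.91 and 8.33 CPM with DAPT, against 5.72, 4.72 and 3.97 CPM with sErbB4 and 3.91, 4.83 and 4.69 CPM with vehicle. No DAPT library overlapped one without DAPT, with a log2 fold change of 0.89 ± 0.08 (SE, adjusted p = 8.57e-06). Kcna1 (Kv1.1), the axonal subunit whose mutation causes episodic ataxia in humans, was the most abundant Kcna gene. Kcna1 had 33.5, 33.8 and 32.4 CPM with DAPT + sErbB4 and 31.3, 31.5 and 34.3 CPM with DAPT, against 27.2, 25.3 and 25.0 CPM with sErbB4 and 23.7, 23.5 and 24.7 CPM with vehicle. It was higher in all 6 DAPT libraries, with a log2 fold change of 0.40 ± 0.03 (SE, adjusted p = 3.24e-06).

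Kcna3 (Kv1.3) is also used by lymphocytes and microglia. Kcna3 had 7.70, 8.62 and 8.64 CPM with DAPT + sErbB4 and 8.66, 9.30 and 8.69 CPM with DAPT, against 6.56, 6.19 and 6.42 CPM with sErbB4 and 5.24, 6.97 and 6.46 CPM with vehicle. The groups did not overlap, with a log2 fold change of 0.45 ± 0.07 (SE, adjusted p = 2.11e-04). Microglia markers summed to 84.7 to 96.2 CPM with DAPT, against 88.0 to 107 CPM without, with 1 of 7 called lower. Kcnc2 (Kv3.2) is a fast delayed rectifier of interneurons. Kcnc2 had 4.00, 3.62 and 4.05 CPM with DAPT + sErbB4 and 3.47, 3.40 and 3.66 CPM with DAPT, against 2.50, 2.75 and 3.52 CPM with sErbB4 and 2.54, 2.64 and 3.00 CPM with vehicle. A single sErbB4 library lay among the DAPT values, with a log2 fold change of 0.39 ± 0.09 (SE, adjusted p = 0.00576), and none of 5 inhibitory neuron markers was called.

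Kcnb2 (Kv2.2), a delayed rectifier, was called in the mean DAPT effect only. Kcnb2 had 1.91, 1.92 and 1.81 CPM with DAPT + sErbB4 and 1.99, 1.65 and 1.86 CPM with DAPT, against 1.61, 1.02 and 1.47 CPM with sErbB4 and 1.33, 1.29 and 1.64 CPM with vehicle. It was higher in all 6 DAPT libraries with a log2 fold change of 0.42 ± 0.14 (SE, adjusted p = 0.0315), and the call held in 11 of 21 alternatives, failing with DESeq2, with limma and without any of 8 single libraries. Kcna6 had -0.19 ± 0.04 with no overlap between the 6 DAPT libraries and the rest. Kcnab2, the Kvβ2 subunit that joins Kv1 channels, was higher. Kcnab2 had 54.1, 48.3 and 48.2 CPM with DAPT + sErbB4 and 43.1, 46.4 and 44.6 CPM with DAPT, against 36.6, 38.1 and 43.6 CPM with sErbB4 and 32.3, 35.1 and 33.9 CPM with vehicle. The highest sErbB4 library exceeded the lowest DAPT library, with a log2 fold change of 0.38 ± 0.05 (SE, adjusted p = 9.51e-05).

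Among the 6 Kcnh genes, 2 were called higher in the mean DAPT effect, where 5.54% of all genes were. Of the single comparisons, Kcnh2 was called in DAPT over vehicle only. Kcnh3 encodes a channel of the ELK type found in forebrain neurons. Kcnh3 had 12.4, 11.5 and 10.7 CPM with DAPT + sErbB4 and 9.36, 10.4 and 8.79 CPM with DAPT, against 6.84, 6.80 and 8.10 CPM with sErbB4 and 6.07, 6.12 and 5.87 CPM with vehicle. Its DAPT libraries were all above the others, with a log2 fold change of 0.66 ± 0.06 (SE, adjusted p = 8.02e-06). Kcnh2 encodes ERG1, which in the heart repolarises the action potential. Kcnh2 had 5.57, 5.39 and 5.48 CPM with DAPT + sErbB4 and 4.83, 5.50 and 4.96 CPM with DAPT, against 4.43, 5.04 and 4.42 CPM with sErbB4 and 3.76, 3.37 and 4.14 CPM with vehicle. Its groups overlapped by 1 sErbB4 library, with a log2 fold change of 0.34 ± 0.07 (SE, adjusted p = 0.00184), and the call was lost without vehicle replicate 2, sErbB4 replicate 1 or 3, or DAPT replicate 2. Kcnh3 overlaps Mcrs1 on the opposite strand, which was at 68.2 CPM with a log2 fold change of -0.07. Whether reads were counted by strand is not given in the sources used here.

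Kcnn2, which encodes the SK2 channel of the afterhyperpolarisation, was the only one of 8 calcium- or sodium-activated channel genes called in the mean DAPT effect. Of all genes 13.2% were called in it. Kcnn2 had 36.6, 37.1 and 36.6 CPM with DAPT + sErbB4 and 35.6, 39.4 and 32.7 CPM with DAPT, against 22.1, 25.6 and 20.1 CPM with sErbB4 and 22.98, 19.9 and 24.1 CPM with vehicle. All 6 DAPT libraries were higher, with a log2 fold change of 0.69 ± 0.07 (SE, adjusted p = 9.65e-06). Kcnn3 had -0.24 ± 0.07, and Kcnn2 was 67.8 to 71.0% of the Kcnn sum with DAPT, against 51.5 to 60.7% without. Kcnma1, the BK channel, had 0.20 ± 0.07 and its neuronal auxiliary subunit Kcnmb4 had -0.13 ± 0.05.

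Kcnt1, the sodium-activated channel Slack, was called lower in DAPT + sErbB4 over sErbB4 only. Kcnt1 had 5.61, 5.07 and 5.37 CPM with DAPT + sErbB4 and 4.95, 5.01 and 5.19 CPM with DAPT, against 8.21, 5.81 and 6.46 CPM with sErbB4 and 5.75, 6.01 and 6.83 CPM with vehicle. The 6 DAPT libraries were all lower, with a log2 fold change of -0.35 ± 0.12 in that comparison. Its adjusted p of 0.0499976 was barely under the threshold, and the call held in 3 of 22 alternatives.

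**Figure D4:**
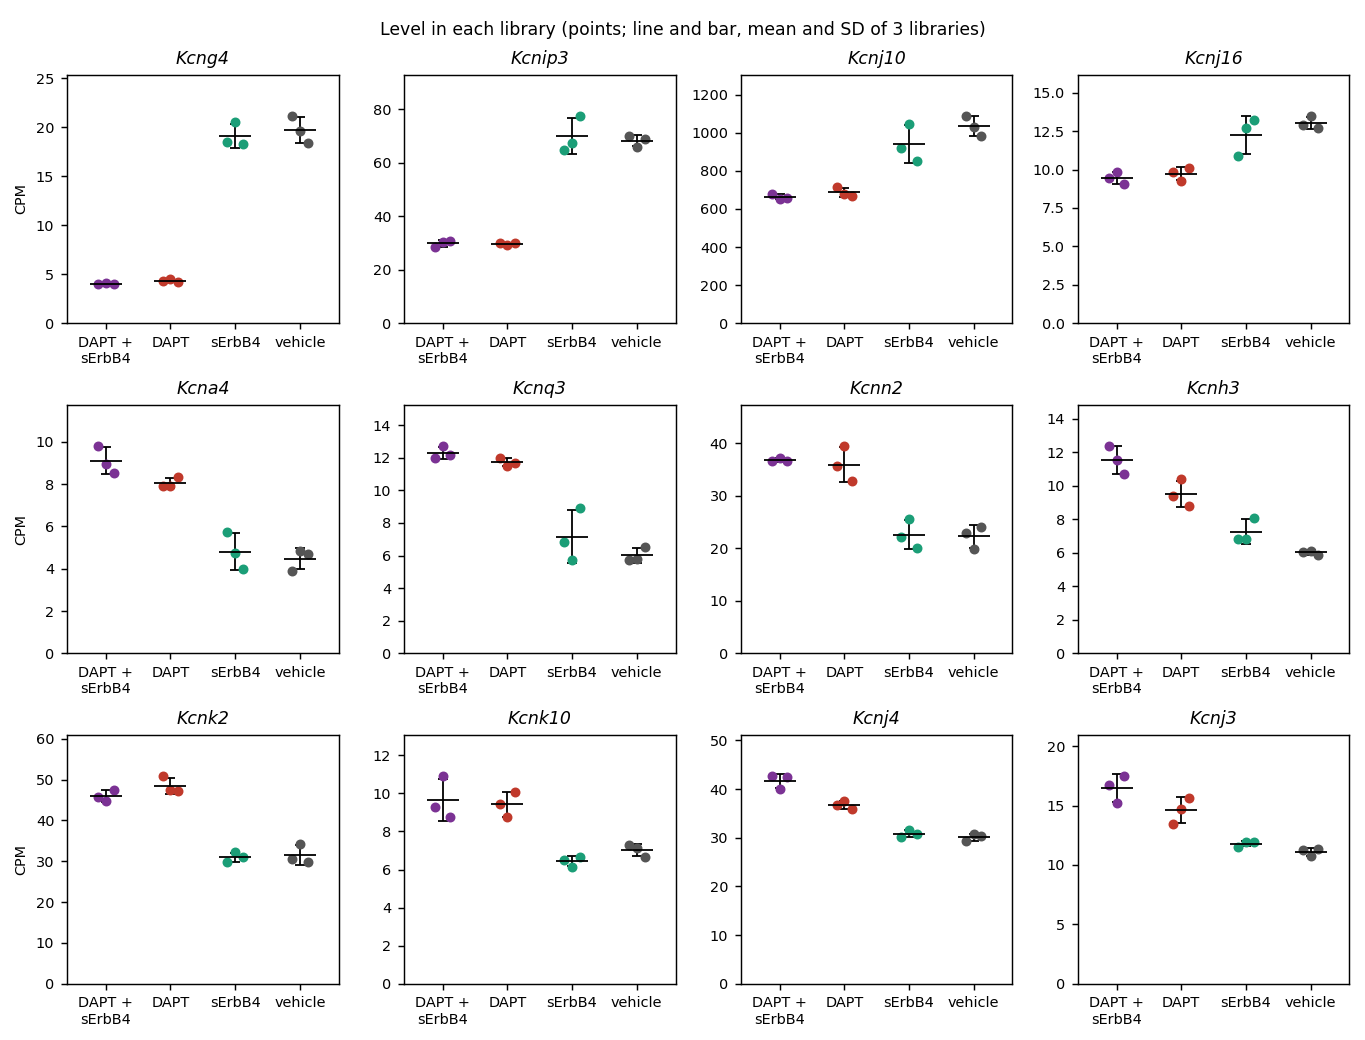
Level in CPM (y axis, from 0) of 12 members in each library (points), with the mean and SD of 3 libraries as line and bar, in the 4 conditions (x axis). The first 4 genes are lower in both DAPT conditions and the other 8 higher, and in none of the 12 do the DAPT libraries overlap the libraries without DAPT.

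Of 10 inward rectifiers (Kcnj), 5 were called higher and 2 lower, where 5.54% and 7.7% of all genes were. Kcnj10 (Kir4.1) takes up potassium into astrocytes and pairs with Kcnj16 (Kir5.1). Kcnj10 had 677, 653 and 658 CPM with DAPT + sErbB4 and 715, 676 and 667 CPM with DAPT, against 920.3, 1047 and 849 CPM with sErbB4 and 1087, 1030.4 and 982 CPM with vehicle. The 6 DAPT libraries were all lower, with a log2 fold change of -0.55 ± 0.05 (SE, adjusted p = 3.45e-06). Kcnj16 had 9.48, 9.81 and 9.07 CPM with DAPT + sErbB4 and 9.86, 9.25 and 10.1 CPM with DAPT, against 10.9, 12.7 and 13.2 CPM with sErbB4 and 12.9, 13.5 and 12.7 CPM with vehicle. This gene was also lower in all 6, with a log2 fold change of -0.39 ± 0.05 (SE, adjusted p = 8.88e-05). The ratio of Kcnj10 to Kcnj16 was 66.1 to 73.1 with DAPT, against 64.3 to 84.7 without, and the ranges overlapped. The astrocyte markers Aldh1l1, Aldoc and Slc1a3 had log2 fold changes of -0.61, -0.61 and -0.43 and were called lower, Gjb6 (0.93) was called higher and Gfap had 0.26. The part of glial markers in these results was not tested.

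The G protein-gated rectifiers Kcnj3, Kcnj6 and Kcnj9, which slow firing when GABA-B and other receptors are active, were all called higher. Of the single DAPT comparisons, Kcnj6 and Kcnj9 were called in DAPT over vehicle only. Kcnj3 had 16.7, 15.2 and 17.5 CPM with DAPT + sErbB4 and 13.5, 14.7 and 15.6 CPM with DAPT, against 11.6, 11.9 and 11.9 CPM with sErbB4 and 11.2, 10.7 and 11.3 CPM with vehicle. No libraries overlapped, with a log2 fold change of 0.44 ± 0.05 (SE, adjusted p = 2.12e-05). Kcnj6 had 16.8, 18.2 and 17.2 CPM with DAPT + sErbB4 and 16.4, 15.4 and 16.0 CPM with DAPT, against 15.7, 12.3 and 14.0 CPM with sErbB4 and 11.9, 11.3 and 14.0 CPM with vehicle. A single sErbB4 library reached the DAPT range, with a log2 fold change of 0.34 ± 0.06 (SE, adjusted p = 0.00148), and the call was lost without vehicle replicate 1 or 2, sErbB4 replicate 2 or DAPT + sErbB4 replicate 2. Kcnj9 had 8.05, 6.08 and 6.51 CPM with DAPT + sErbB4 and 6.24, 6.93 and 5.98 CPM with DAPT, against 5.55, 5.04 and 6.05 CPM with sErbB4 and 4.54, 5.17 and 5.14 CPM with vehicle. Again 1 sErbB4 library overlapped, with a log2 fold change of 0.34 ± 0.08 (SE, adjusted p = 0.00655), and the call was lost without vehicle replicate 1, sErbB4 replicate 2, DAPT replicate 2 or DAPT + sErbB4 replicate 1. Kcnj5, the fourth gene of the group, had 0.20 ± 0.14 and was not called. The ratio of Kcnj3 to Kcnj6 was 0.821 to 1.01 with DAPT, against 0.734 to 0.971 without.

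Kcnj4 (Kir2.3) and Kcnj2 (Kir2.1), classical strong rectifiers, were higher too, though Kcnj2 was called in the mean DAPT effect only. Kcnj4 had 42.6, 40.1 and 42.5 CPM with DAPT + sErbB4 and 36.7, 37.5 and 35.9 CPM with DAPT, against 30.1, 31.5 and 30.8 CPM with sErbB4 and 29.2, 30.7 and 30.3 CPM with vehicle. Within each condition the spread of Kcnj4 was small, and no libraries overlapped between DAPT and no DAPT, with a log2 fold change of 0.36 ± 0.03 (SE, adjusted p = 1.19e-06). Kcnj2 had 0.957, 1.01 and 1.10 CPM with DAPT + sErbB4 and 1.05, 1.252 and 1.08 CPM with DAPT, against 0.765, 0.606 and 0.818 CPM with sErbB4 and 0.744, 0.843 and 0.683 CPM with vehicle. Kcnj2 was near 1 CPM, with a log2 fold change of 0.53 ± 0.17 (SE, adjusted p = 0.0247), and its call held in 12 of 21 alternatives, failing with DESeq2, with limma and without any of 7 single libraries. Kcnj11, the pore of the ATP-sensitive channel, had -0.08 ± 0.06.

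Some members that moved in opposite directions are neighbours in the genome. Kcnj9 (chr1:172320501-172329318, minus strand) was higher and Kcnj10 (chr1:172341210-172374085, plus strand) was lower, with 11.9 kb between them. Kcnj16 (chr11:110968033-111027968) was lower and Kcnj2 (chr11:111066164-111076821) was higher, both on the plus strand with 38.2 kb between them. In the other neighbouring pairs of members, not both genes were called. Each of these 2 pairs includes a call that some settings lost. In the mean DAPT effect the call of Kcnj9 held in 16 of 21 alternatives and that of Kcnj2 in 12. How often neighbours move in opposite directions over all genes was not tested. Positions are those of mm10 in GENCODE.

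Of 9 tandem-pore genes (Kcnk), 2 were called, where 13.2% of all genes were. Both, Kcnk2 and Kcnk10, are of the stretch- and lipid-sensitive TREK type. Their relative Kcnk4 had a log2 fold change of 0.35 and was not called. Its libraries overlapped, at 1.73 to 3.49 CPM with DAPT, against 1.12 to 3.07 CPM without. Kcnk2 had 45.7, 44.6 and 47.4 CPM with DAPT + sErbB4 and 50.8, 47.5 and 47.2 CPM with DAPT, against 29.9, 32.1 and 30.9 CPM with sErbB4 and 30.4, 34.2 and 29.8 CPM with vehicle. This gene, TREK-1, was higher in all 6 DAPT libraries, with a log2 fold change of 0.60 ± 0.04 (SE, adjusted p = 4.17e-07). Kcnk10 had 9.26, 10.9 and 8.79 CPM with DAPT + sErbB4 and 9.44, 8.76 and 10.1 CPM with DAPT, against 6.52, 6.13 and 6.67 CPM with sErbB4 and 7.28, 7.14 and 6.64 CPM with vehicle. TREK-2 was higher in all 6 as well, with a log2 fold change of 0.51 ± 0.06 (SE, adjusted p = 6.01e-05). Kcnk1 (TWIK-1), the most abundant of the 9, had -0.26 ± 0.04, under the fold limit, with all 6 DAPT libraries lower. Kcnk1 was 59.1 to 62.4% of the Kcnk sum with DAPT, against 70.3 to 73.2% without, and Kcnk2 was 22.4 to 25.5% with DAPT, against 14.6 to 16.4% without. The Kcnk sum itself overlapped, at 186 to 204 CPM with DAPT, against 190.1 to 208 CPM without.

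Among 12 auxiliary genes 1 was called higher (Kcnab2) and 1 lower (Kcnip3), where 5.54% and 7.7% of all genes were. Kcne1l, the most abundant Kcne gene, had -0.27 ± 0.05 with no overlap. None of the 3 noncoding members (Kcnd3os, Kcnmb4os2 and Kcnq1ot1) was called. Kcnd3os and Kcnmb4os2 overlap their coding partner on the opposite strand.

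Over all members 25 of 76 had no overlap between the 6 DAPT libraries and the 6 without, 16 higher and 9 lower, where 20.4% of all genes had none (8.6% higher, 11.8% lower). The summed level of all members was 1568 to 1654 CPM with DAPT, against 1807 to 1973 CPM without. Without Kcnj10 the sums overlapped, at 901 to 977 CPM with DAPT, against 886 to 958 CPM without.

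Neuron markers moved with the members that were higher. The 8 markers ran from -0.13 (Tubb3) to 0.38 (Nefl) on the log2 scale, with a median of 0.30. Of the 19 members called higher, 13 exceeded Nefl. The fold limit had selected these 19, the lowest of which was at 0.33, so all lay above the marker median by selection. The count above Nefl therefore cannot show whether the members rose more than neuron markers did. Divided by the summed neuron markers of the same library, 7 of the 76 members were higher with no overlap between the 6 DAPT libraries and the rest (Kcna4, Kcnh3, Kcnj3, Kcnj4, Kcnk2, Kcnn2 and Kcnq3), where 1.14% of all genes were. Per 1000 CPM of neuron markers, Kcnq3 was at 7.09 to 8.16 with DAPT, against 3.99 to 6.11 without, and Kcnk2 was at 27.0 to 34.6 with DAPT, against 21.2 to 26.2 without. On this scale 35 of 76 members were positive, where 19.0% of all genes were, against 53 of 76 before. There 11 members were lower with no overlap, where 24.6% of all genes were, and 18 differed in either direction, where 25.7% did. This scaling was chosen after seeing the data, and the part of cell composition in the results was not tested.

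Of 38 listed partner genes (auxiliary proteins, scaffolds, HCN channels and receptor subunits linked to potassium channels), 35 were tested. With the mean DAPT effect 5 were called higher and 1 lower, where 5.54% and 7.7% of all genes were. In it 28 partners were positive, where 51.9% of all genes were, and the median was 0.15. Kctd8 (0.46 ± 0.12) and Kctd16 (0.44 ± 0.08), auxiliary subunits of GABA-B receptors, were higher, as were the secreted Kv1 modulator Lgi1 (0.40 ± 0.03) and the scaffold Dlg2 (0.34 ± 0.04). Amigo3, a relative of the Kv2 subunit Amigo1, was lower (-0.34 ± 0.11).

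Addition of sErbB4 gave no called member. In sErbB4 over vehicle 0 of 76 members were called, where 0.0319% of all genes were, and 7 (9.21%) had an unadjusted p under 0.05, all positive (edgeR, smallest adjusted p = 0.549), near the 7.56% of all genes that did. In DAPT + sErbB4 over DAPT 0 were called, where 0% of all genes were, and 15 (19.7%) had an unadjusted p under 0.05, 13 of them positive (smallest adjusted p = 0.237), where 9.21% of all genes did. DESeq2 and limma called 0 in both as well. The lowest p in DAPT + sErbB4 over DAPT belonged to Kcnj4, with a log2 fold change of 0.19 ± 0.04, while in sErbB4 over vehicle it had 0.04 ± 0.04. In each comparison 51 of 76 members (67.1%) were positive, where 49.1% of all genes were in sErbB4 over vehicle and 50.6% in DAPT + sErbB4 over DAPT, with medians of 0.07 (sErbB4 over vehicle) and 0.05 (DAPT + sErbB4 over DAPT). The neuron markers had medians of 0.13 in both and none was called.

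In sErbB4 over DAPT, which differs in both agents and shares its libraries with the comparisons above, 15 members were called (7 higher, 8 lower), where 10.1% of all genes were (6.04% higher, 4.05% lower). Kcng4 had the largest value, 2.15, with sErbB4 above DAPT.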

How the data were processed

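The authors sequenced poly-A RNA of the 12 libraries and, per the labels and the study's methods, used Trimmomatic for trimming, HISAT2 for alignment (mm10) and StringTie for assembly. What they deposited are estimated counts from IsoformSwitchAnalyzeR, which were rounded here to whole numbers. Low values were whole multiples of a step (tolerance 0.01), and the mean count of 12534 genes showed no increase with transcript length (Spearman's rho = -0.0854 across genes), so an estimated count of 10 is not 10 reads. Loci without a gene name (43.4 to 51.8% of the counts) were left out.

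Counts were filtered with filterByExpr, scaled by TMM and tested in edgeR 4.0.16 (R 4.3.3) with the quasi-likelihood test, with a mean for each of 4 conditions, 8 residual degrees of freedom and Benjamini-Hochberg adjustment over 15656 genes. The SE comes from the test statistic. Members and lists were chosen with earlier results of these data known. Named are all members called in a DAPT, sErbB4 or interaction comparison, the most abundant of each subfamily and the rows around the minimum count, except that 4 members and 1 partner gene are not reported here by name and stay in the counts. Alternatives were RLE scaling, DESeq2 1.42.0, limma 3.58.1 on log2(CPM + 2) with cyclic loess, other filters, unnamed loci kept, Rn45s left out, adjusted p alone, only the libraries compared, the replicate number as a block, each library left out, and levels per neuron marker. The script for the tests was checked on simulated data. Intervals for counting error were not given because the values are not read counts.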

Additional observations from a re-analysis of the deposited data

How the results depend on the processing

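No direction reversed under any alternative. The number of members called in the mean DAPT effect (24) was 39 by adjusted p alone, 29 higher and 10 lower, since the fold limit was then not applied. Other settings gave 16 with limma, 21 with DESeq2 and 24 or 25 with RLE scaling, unnamed loci kept or Rn45s left out. With 1 library left out at a time it was 21 to 26, lowest without vehicle replicate 1 and highest without vehicle replicate 3. The same ranges were 17 to 24 for DAPT over vehicle, 17 to 21 for DAPT + sErbB4 over sErbB4, 13 to 15 for sErbB4 over DAPT and 0 for both sErbB4 comparisons and the interaction.

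Of 1368 values of single genes with a library left out, 62 lost their call and 37 gained one, and of 1102 under other alternatives 34 lost and 33 gained one. Calls in the mean DAPT effect held in 11 of 21 alternatives for Kcnb2, in 12 for Kcnj2, in 16 each for Kcnh2, Kcnj6, Kcnj9 and Kcns3, in 19 for Kcnv1 and in 20 for Kcnc2, and in all 21 for the other 16 members called. The limma setting, which changed the test, the transform and the scaling (cyclic loess) together, lost all 8 of these, and which of the 3 did so was not tested. DESeq2 lost Kcnb2, Kcnj2 and Kcnv1. Per neuron marker, 18 in place of 25 members had no overlap.

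The labels do not say whether the replicate numbers pair the libraries, and correlations between same-numbered libraries were mixed and do not settle it. Deviations of same-numbered libraries correlated at -0.624 (vehicle and sErbB4, replicate 3) to 0.556 (vehicle and DAPT + sErbB4, replicate 1). The median was 0.0276 over 18 pairs, 8 above 0.1, and 5 of 12 libraries were closest to their own number. With the replicate block 24 members were called in the mean DAPT effect, 18 in DAPT over vehicle, 19 in DAPT + sErbB4 over sErbB4 and 15 in sErbB4 over DAPT.

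Limits are the 3 libraries per condition, members near 1 CPM with wide SEs, unsorted cultures whose cell markers moved with DAPT, and counts that keep no read depth per gene.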

Other observations

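The 17 Kcn rows under the minimum averaged 0.224 (Kcnk15) to 8.65 (Kcnk6) estimated counts. Among them were Kcnq1 at 2.55, the cardiac and epithelial Kv7 gene, Kcnj8 at 2.18, the vascular pore of the ATP-sensitive channel, and Kcnj13 at 6.38, a rectifier of choroid plexus and retinal pigment epithelium. Of the partner genes, Lrrc26, an auxiliary protein of the BK channel in secretory epithelium, was listed at 0 in all 12 libraries.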
